A study of Mus musculus with 4 samples.

Results

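The endothelial cells described here are 108 of the 6836 quality-filtered barcodes (11995 before filtering) of a CITE-seq experiment on mouse heart, in which messenger RNA and antibody-coupled oligonucleotide tags for surface proteins were counted in the same droplets. Quality filtering asked for 200 or more genes and for mitochondrial transcripts below 10% of UMIs (unique molecular identifiers, 1 per captured molecule). It was taken as endothelial when Cdh5, Egfl7, Emcn and Kdr summed to 4 or more UMIs and when the transcripts that mark other cells stayed low: C1qa, C1qb and C1qc at most 19 UMIs, Cd3d, Cd3e and Cd3g at most 1, Cd79a, Cd79b and Ms4a1 at most 4, Csf3r and Retnlg at most 2, and Col1a1, Col3a1 and Dcn at most 9. The hearts came from C57BL6J mice given either a rat IgG isotype antibody or an agonist anti-CD40 antibody, and the ventricles of 4 mice were pooled into 1 library per treatment, each with an RNA and a tag part. The labels name viable CD45+ cells as the sorted population, whereas the series' text names nucleated (DRAQ5+) DAPI- cells. With 1 pooled library per treatment no test between treatments was possible, and treatment and library preparation cannot be told apart. Every interval below is a 95% interval that covers counting error only.

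Endothelial cells line the vessels and the chambers of the heart, carry lipids and other nutrients across to the muscle, keep blood from clotting and decide where leukocytes leave the circulation. Interferon-gamma, released by T cells and NK cells, acts through the receptor chains Ifngr1 and Ifngr2 and the kinases Jak1 and Jak2. Its targets include chemokines, guanylate-binding proteins (GBPs), immunity-related GTPases and the machinery that loads and displays peptides on MHC molecules. CD40 is a receptor of the tumour necrosis factor receptor family best known on antigen-presenting cells.

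The isotype library held 40 endothelial barcodes among 2558 kept (1.56%, Clopper-Pearson interval 1.12 to 2.12%) and the anti-CD40 library 68 among 4278 (1.59%, 1.24 to 2.01%). These shares overlapped, but the limits on other cells bore unequally on the libraries. Before the limits, 44 isotype and 119 anti-CD40 barcodes had 4 or more endothelial UMIs, and 4 and 50 of these exceeded the C1q limit. The endothelial barcodes held 245006 gene UMIs in the isotype library and 458988 in the anti-CD40 library, with medians of 4213.5 and 4364 UMIs per barcode against 5446 and 8284.5 over all kept barcodes. The libraries shared 13 barcodes, none of them endothelial.

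The 4 genes of the rule describe the selection and support nothing further. Their sum had a median of 19.5 UMIs (4 to 119) in the isotype library and 14 (4 to 136) in the anti-CD40 library. Egfl7, a secreted endothelial protein, stood at 1175 and 1181 CPM, the UMIs of a gene scaled to the summed gene UMIs of the endothelial barcodes of a library. Cdh5, the adherens-junction cadherin VE-cadherin, stood at 1208 and 671 CPM, Kdr, the main VEGF receptor, at 1241 and 830 CPM, and Emcn, an endothelial sialomucin, at 580 and 305 CPM. Just inside the threshold, at a sum of 4, lay 6 isotype and 8 anti-CD40 barcodes with medians of 12.5 and 14 UMIs of 37 other endothelial genes. Just outside it, at a sum of 3, lay 6 and 9 barcodes with medians of 6 and 13.

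The label held for most but not all of these barcodes. The 37 endothelial identity genes that the rule did not use, among them Pecam1, Flt1, Tek, Tie1 and Erg, were set against 8 genes shared by leukocytes (Ptprc, Coro1a, Laptm5, Cd52, Cd53, Lcp1, Rac2 and Arhgdib). In 39 isotype and 63 anti-CD40 barcodes the endothelial genes had more UMIs, with leukocyte sums of at most 7 and 11. In 1 isotype and 5 anti-CD40 barcodes the leukocyte genes had more, 184 UMIs in the first and 52 to 182 in the others. These 6 barcodes stood far from the rest in the plot of identity against leukocyte UMIs, and because they were deep they supplied 9.69% of the isotype and 18.6% of the anti-CD40 endothelial UMIs. Values below are over all 108 barcodes unless the other 102 are named.

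**Figure D1:**
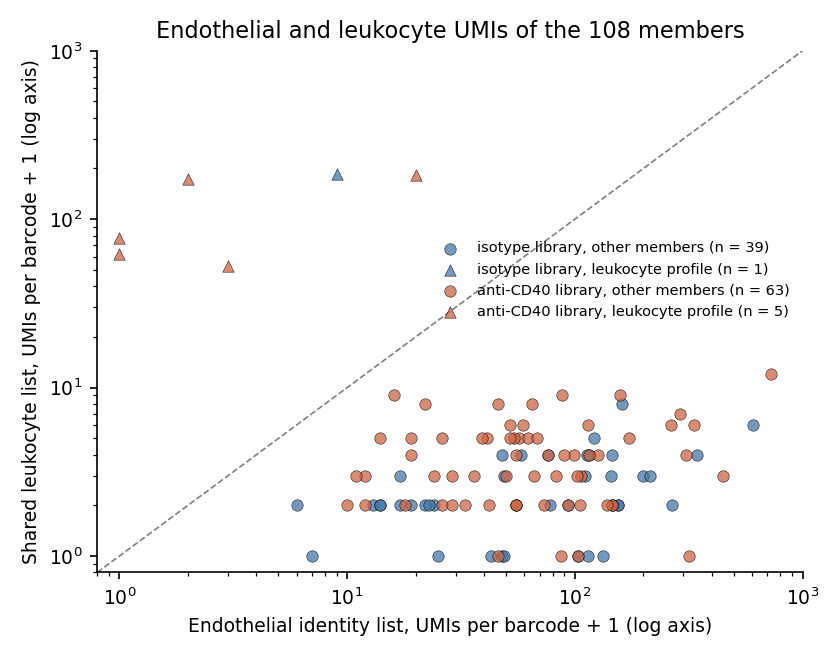
Each point is 1 of the 108 barcodes, with UMIs of the 37 endothelial identity genes (x axis, plus 1, log axis) against UMIs of the 8 shared leukocyte genes (y axis, plus 1, log axis). The dashed line marks equality, and the 6 triangles above it are the barcodes with 52 to 184 leukocyte UMIs.

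Surface tags, which played no part in the selection, showed an endothelial surface in both libraries. CD31, the product of Pecam1, had a median of 1117 tag UMIs per isotype barcode and 1099 per anti-CD40 barcode. As a share it made up 1384 and 1265 of every 10000 tag UMIs, against 57.4 and 45.6 in kept barcodes without a UMI of the 4 rule genes (called other cells below). The integrin chain CD49f stood at 1276 and 993 per 10000, against 131 and 109 in other cells. The adhesion molecules CD102 (611 and 730) and ESAM (180 and 190), the TGF-beta co-receptor CD105 (456 and 402) and the capillary protein CD300LG (223 and 181) were likewise many times above other cells, in which ESAM for example reached 6.40 and 7.52. The receptor tyrosine kinase Tie-2 gave 20.7 and 18.2 per 10000 against 2.14 in other cells of each library. CD45, the leukocyte antigen named in the sort, gave 10.8 and 20.1 per 10000, or 3.44% and 5.88% of its level in other cells. Its median was 2 tag UMIs in the isotype and 6.5 in the anti-CD40 endothelial barcodes, and its gene Ptprc was seen in 7 of 40 and 21 of 68. The CD31 tag of the 6 barcodes with more leukocyte than endothelial UMIs was 36 in the isotype barcode and between 0 and 4 in the anti-CD40 ones, except for 1 at 819.

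Among the lists of vessel types, capillary genes had the most UMIs in both libraries. Fabp4, the fatty acid carrier of capillary endothelium, reached 14192 CPM in the isotype and 12909 CPM in the anti-CD40 library, against 42.8 and 122 CPM in barcodes with 20 or more C1q UMIs (C1q-high barcodes, mostly rich in macrophage transcripts). Among the 102 barcodes, the 16 capillary genes outnumbered the 14 arterial genes in 38 of 39 and 61 of 63 barcodes. The exceptions numbered 1 isotype and 2 anti-CD40 barcodes, and the arterial connexin Gja5 was found in 1 and 3 barcodes. One anti-CD40 barcode of 35492 UMIs, singled out after its values were seen, had 225 arterial against 50 capillary UMIs. The lymphatic factor Prox1 was at 0 in all 108 barcodes, and neither the 8 lymphatic nor the 9 endocardial genes had a member with enough UMIs to compare. Prox1 counting allows up to 12.2 CPM in the isotype and 6.54 CPM in the anti-CD40 barcodes (3 UMIs).

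Between the libraries, 2379 genes had at least 30 UMIs and were seen in at least 5% of endothelial barcodes in the library where they were higher. Their difference is given as a log2 ratio, anti-CD40 over isotype, of CPM plus a prior of 10 CPM, and 2-fold (an absolute log2 ratio of 1) was the line for calling a gene higher or lower. Of the 2379 genes, 258 (10.8%) were higher and 90 (3.78%) lower in the anti-CD40 library, with a median log2 ratio of 0.12. The higher genes were 74.1% of the calls. With TMM factors, which shift every ratio by 0.17, the counts were 324 and 61 (84.2% higher), and with a median of ratios, which shifts them by -0.12, they were 226 and 129 (63.7% higher). Among the 102 barcodes, 2076 genes were compared and 229 (11.0%) were higher and 78 (3.76%) lower. Counts for the gene lists below are to be read against these shares.

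Interferon-gamma response genes made up the leading difference. Of 36 listed genes 34 were compared, 32 lay above the 2-fold line and 0 below it, with a median log2 ratio of 3.28 (3.16 when genes at 0 UMIs were set to 3 UMIs). Among the 102 barcodes the counts were 32 of 33 and 0, and the median was 3.27. The exceptions over all barcodes were Ly6e, at 1522 and 2384 CPM, and Irf8, at 204 and 172 CPM. For Irf8, 92% of the isotype UMIs came from 1 barcode. The difference was not particular to endothelial barcodes, in which the list summed to 5033 and 31484.5 CPM. It summed to 1868 and 13944 CPM in C1q-high barcodes, and to 2076 and 13117 CPM in other cells.

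**Figure D2:**
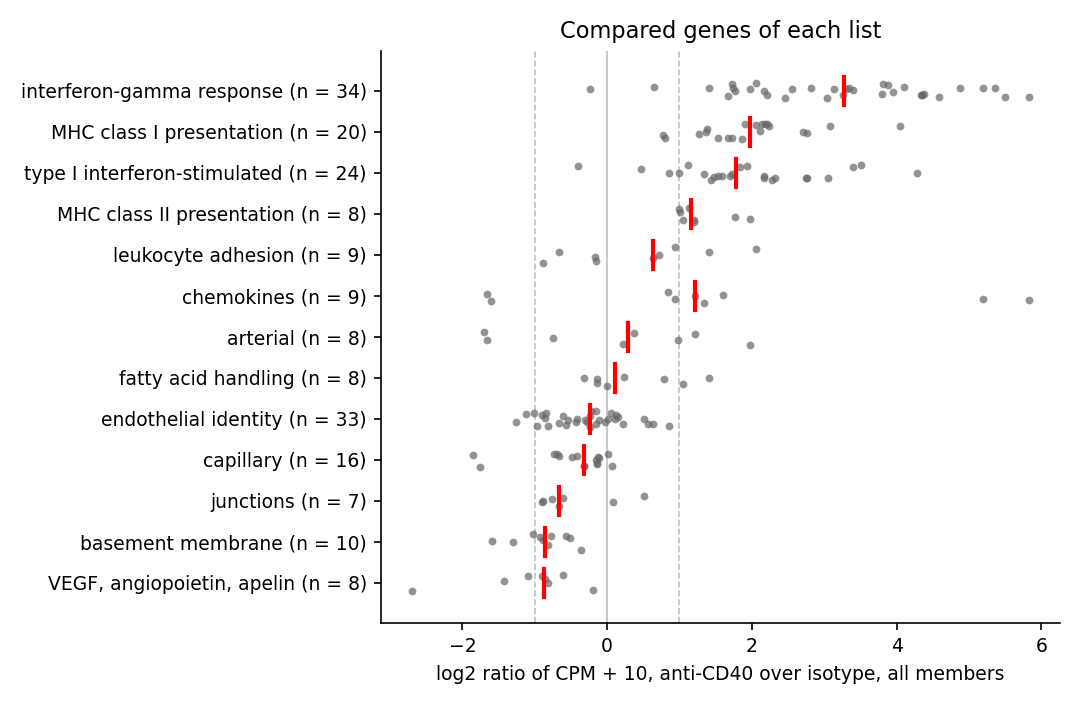
Each point is a compared gene of the list named at left, placed by its log2 ratio of CPM plus 10 (anti-CD40 over isotype, 108 barcodes), with the list's median in red and dashed lines at 2-fold. The interferon-gamma list is centred at 3.28 and the basement membrane list at -0.85.

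Receptors and early factors came first in the pathway. Ifngr1 stood at 265 and 185 CPM, and Jak1 at 257 CPM in the anti-CD40 against 180 CPM in the isotype library, neither past 2-fold. Jak2 stood at 36.7 and 113 CPM, with 57.7% of the anti-CD40 UMIs in the 5 leukocyte-rich barcodes. The transcription factor Irf1 stood at 122 and 584 CPM (4.77-fold, 3.26 to 7.21). Batf2, another induced transcription factor, was at 0 UMIs in the isotype and 88 UMIs in 35 barcodes of the anti-CD40 library, at least 15.7-fold higher against a floor of 3 UMIs. Socs1, the feedback inhibitor of the kinases, had 3 UMIs in the isotype and 103 in the anti-CD40 library (18.3-fold, 6.10 to 90.3).

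GTPases that act against intracellular microbes were found in most anti-CD40 barcodes. Gbp2 had 20 UMIs in 11 isotype barcodes and 1005 UMIs in 59 of 68 anti-CD40 barcodes, 81.6 against 2190 CPM (26.8-fold, 17.3 to 44.1). Gbp4 stood at 61.2 and 1447 CPM (23.6-fold, 14.2 to 42.5), with a UMI in 10 of 40 and 63 of 68 barcodes. Igtp, an immunity-related GTPase that acts on intracellular vacuoles, stood at 28.6 and 1122 CPM (39.3-fold, 18.9 to 98.2). Gbp6 had 2 UMIs against 339 (90.5-fold, 24.9 to 750), and Gbp10 had 0 against 67 (at least 11.9-fold). GBP genes, the Serpina3 genes and the H2-Q genes are families of related genes, some of them closely similar. How the authors' counting treated reads that match several members was not examined.

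Short promoter stretches of the highest-ranked genes are shown because these genes differed together between the libraries. RefSeq promoters (GRCm38.p6, 250 bases before to 50 after a gene's start, printed 5′ to 3′ on the gene's strand) were matched by symbol for 10 of the 15 genes ranked highest, and capitals mark every match to TTCNNNGAA, the GAS motif found near interferon-gamma-activated genes, or to GAAA, any 2 bases and GAAA, the core of the ISRE motif bound by interferon regulatory factors, on either strand. A promoter is at chr11:58199306-58199605 (+) for Igtp, chr3:142496684-142496983 (+) for Gbp5, chr3:142620413-142620712 (+) for Gbp2, chr12:104235897-104236196 (+) for Serpina3g and chr5:92328030-92328329 (-) for Cxcl9.
Igtp: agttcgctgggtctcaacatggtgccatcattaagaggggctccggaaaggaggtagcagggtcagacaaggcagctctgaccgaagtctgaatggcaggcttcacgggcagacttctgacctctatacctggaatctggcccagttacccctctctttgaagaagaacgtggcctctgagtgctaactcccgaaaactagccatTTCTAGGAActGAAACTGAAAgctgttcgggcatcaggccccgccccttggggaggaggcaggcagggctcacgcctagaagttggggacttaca
Gbp5: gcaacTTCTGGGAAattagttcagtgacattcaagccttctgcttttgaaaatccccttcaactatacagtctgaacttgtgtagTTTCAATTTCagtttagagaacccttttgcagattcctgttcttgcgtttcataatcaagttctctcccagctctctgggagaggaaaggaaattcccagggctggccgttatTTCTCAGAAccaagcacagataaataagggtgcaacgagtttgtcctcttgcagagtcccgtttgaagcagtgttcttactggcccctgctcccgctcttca
Gbp2: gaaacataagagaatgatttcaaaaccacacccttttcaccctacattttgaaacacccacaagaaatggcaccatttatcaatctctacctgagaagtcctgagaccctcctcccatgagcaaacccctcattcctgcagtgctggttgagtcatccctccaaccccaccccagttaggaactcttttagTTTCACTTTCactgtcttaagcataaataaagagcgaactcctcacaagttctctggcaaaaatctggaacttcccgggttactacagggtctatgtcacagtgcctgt
Serpina3g: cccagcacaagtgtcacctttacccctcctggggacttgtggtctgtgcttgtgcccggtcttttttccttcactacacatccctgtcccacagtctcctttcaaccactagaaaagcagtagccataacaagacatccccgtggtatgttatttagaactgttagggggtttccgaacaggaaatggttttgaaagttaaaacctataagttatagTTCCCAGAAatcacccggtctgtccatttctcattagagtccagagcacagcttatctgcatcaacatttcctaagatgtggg
Cxcl9: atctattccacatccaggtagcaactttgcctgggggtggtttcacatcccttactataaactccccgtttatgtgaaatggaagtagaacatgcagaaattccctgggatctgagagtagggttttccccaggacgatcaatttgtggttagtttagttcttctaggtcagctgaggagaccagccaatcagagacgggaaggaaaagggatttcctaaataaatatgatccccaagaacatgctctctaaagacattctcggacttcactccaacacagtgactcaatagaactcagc

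Of the 10 genes, 5 had either motif in a listed promoter: Igtp and Gbp5 had both, Gbp2 the ISRE core, and Serpina3g and Serpina3f GAS. Among all 27025 genes with a listed promoter, 12.9% had either, and among the 32851 promoters 8.30% held GAS and 3.44% the ISRE core. Cxcl9, Ubd, Cd274, Tap1 and Bcl2a1b held no match in this window. Of the 10 genes ranked lowest, 7 were matched and 1, Trp53i11, held GAS. These are descriptions of letters in a window and of genes picked by their values.

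Secreted and surface products of the pathway reached high levels. Cxcl9, the ligand that draws CXCR3-bearing T cells, had 12 UMIs in 6 of 40 isotype barcodes and 1532 UMIs in 58 of 68 anti-CD40 barcodes, 49.0 against 3338 CPM (68.1-fold, 38.9 to 132). One anti-CD40 barcode held 379 of them, and without it the level was 2635 CPM. Cxcl10, a second ligand of that receptor, had 0 and 164 UMIs (0 and 29 barcodes, at least 29.2-fold). Cd274, which encodes the T cell inhibitory ligand PD-L1, had 6 UMIs in 6 barcodes and 268 UMIs in 52 barcodes, 24.5 against 584 CPM (23.8-fold, 10.8 to 65.6). Ido1, which degrades tryptophan, had 0 and 59 UMIs (0 and 26 barcodes, at least 10.5-fold), and Wars, the tryptophanyl-tRNA synthetase, stood at 65.3 and 1098 CPM (16.8-fold, 10.3 to 29.6). Serping1, the C1 inhibitor of complement, had 0 and 148 UMIs (at least 26.3-fold), and Ubd, a ubiquitin-like modifier, 0 and 91 UMIs in 0 and 25 barcodes (at least 16.2-fold). A single UMI in the isotype barcodes equals 4.08 CPM, and a count of 0 there allows a level up to about 12.2 CPM, the value of 3 UMIs.

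The PD-L1 protein was also higher in the anti-CD40 library. Its tag had a median of 14.5 UMIs per isotype barcode (1 to 107) and 330 per anti-CD40 barcode (4 to 3644), that is 19.1 against 329 per 10000 tag UMIs (17.2-fold, 16.2 to 18.4), and 27.0-fold when each library was scaled to the control antibody tags. Barcode by barcode, the 39 isotype values ran from 1.69 to 47.0 per 10000 with a median of 17.2, and the 63 anti-CD40 values from 91.8 to 859 with a median of 291. All 63 lay above the highest isotype value. Pooled over C1q-high barcodes of the anti-CD40 library the tag reached 95.9 per 10000, below the 329 pooled over the endothelial barcodes.

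**Figure D3:**
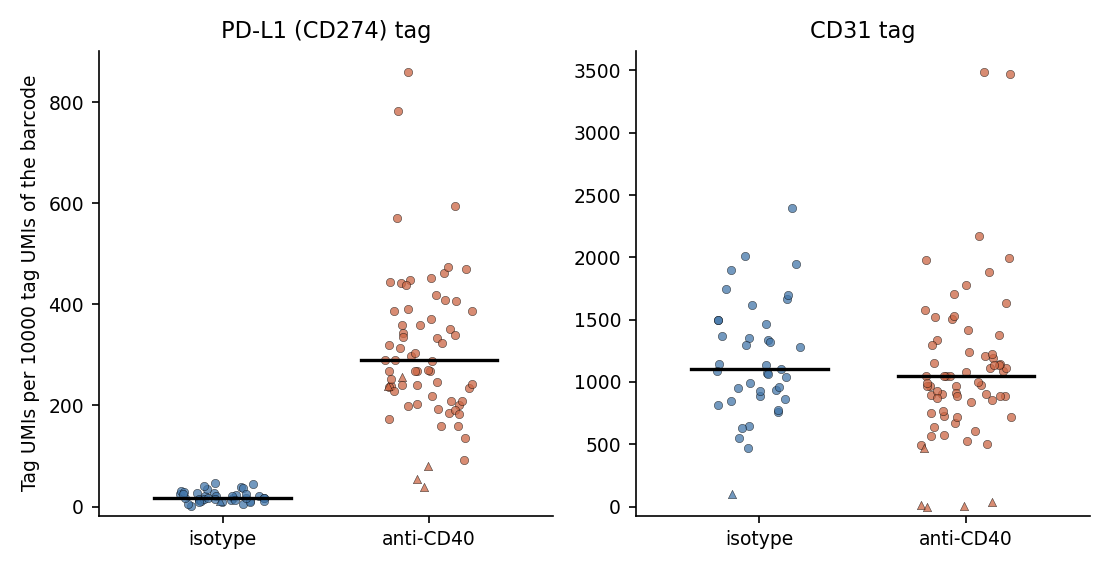
Tag UMIs per 10000 tag UMIs of each barcode for PD-L1 (left) and CD31 (right) in the isotype (n = 40) and anti-CD40 (n = 68) libraries, with triangles for the 6 barcodes with more leukocyte UMIs and bars at the median of the others. The PD-L1 medians are 17.2 and 291, and the circles of the libraries do not overlap, while the CD31 values overlap.

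The difference was spread over the anti-CD40 barcodes. Among the 102 barcodes, the summed interferon-gamma genes came to 0 to 99.7 UMIs per 10000 (median 41.7) in the isotype and 11.8 to 735 (median 344) in the anti-CD40 library. Of the 63 anti-CD40 barcodes 60 lay above the highest isotype barcode, and the count was also 60 with Cxcl9 left out. Macrophage marker UMIs overlapped more, with a median of 9.97 (0 to 51.1) in the isotype and 21.2 (5.07 to 163) per 10000 in the anti-CD40 library and 12 of 63 above the highest isotype value. Within the anti-CD40 library the 2 sums ran opposite to each other across the 63 barcodes (Spearman's rho -0.41, Cxcl9 left out), and the interferon sum ran with depth (rho 0.40). These barcodes share 1 library and their sums share a denominator.

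**Figure D4:**
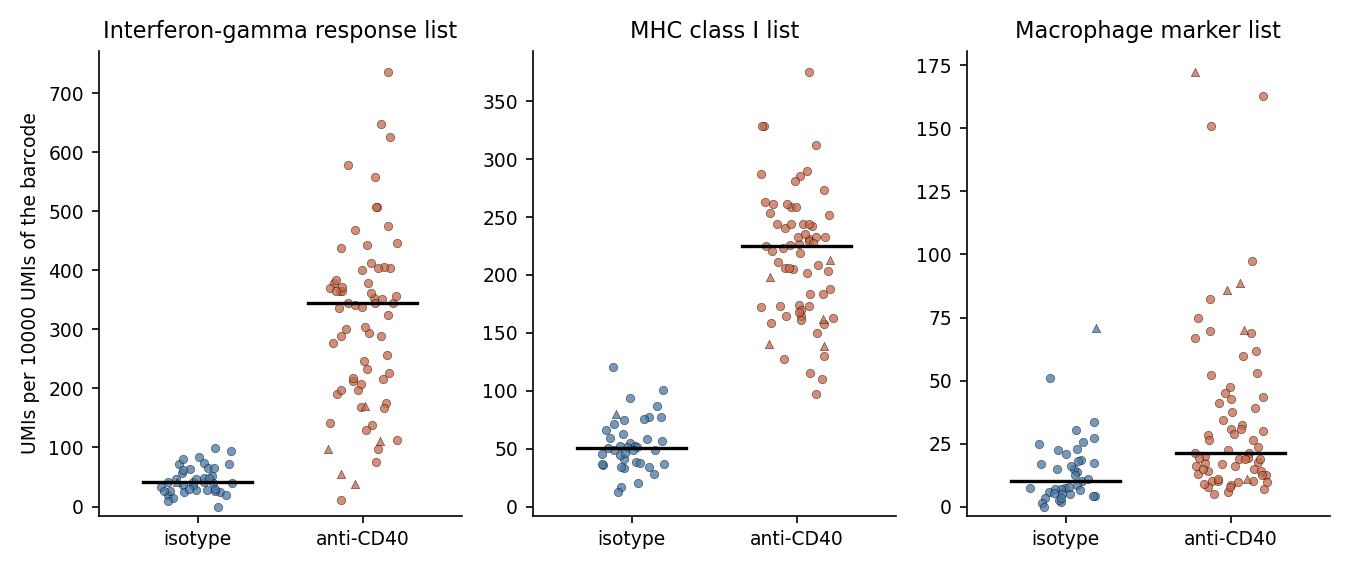
UMIs of 3 gene lists per 10000 UMIs of each barcode in the isotype (n = 40) and anti-CD40 (n = 68) libraries, with triangles for the 6 barcodes with more leukocyte UMIs and bars at the median of the others. Interferon-gamma medians are 41.7 and 344, MHC class I medians 50.7 and 225, and macrophage marker medians 9.97 and 21.2.

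Transcripts of other cells differed between the libraries in both directions: macrophage, neutrophil, NK cell and cardiomyocyte markers were higher in the anti-CD40 library, and B cell markers lower. Of 20 macrophage markers 10 were compared and 7 were more than 2-fold higher, and their summed level in the 102 barcodes was 886 and 1910 CPM, against 42848 and 36104 CPM in C1q-high barcodes of the same libraries. The F4/80 tag had medians of 13 and 253 tag UMIs (56.2 and 258 per 10000, against 1757 and 2245 in C1q-high barcodes). The neutrophil transcript S100a9 stood at 24.5 and 244 CPM. The B cell genes summed to 918 and 320 CPM. Cd79a stood at 32.7 and 0 CPM, but the rule capped it together with Cd79b and Ms4a1, so its level is partly set by the selection. NK cell genes summed to 57.1 and 174 CPM and cardiomyocyte genes to 351 and 582 CPM. T cell genes came to 85.7 and 15.3 CPM (22.6 and 13.4 CPM over the 102 barcodes), with a UMI in 6 endothelial barcodes of each library. Mural cell genes came to 81.6 and 8.71 CPM, in 6 and 3 barcodes, and no gene of either list could be compared. Of 6 platelet genes 5 were at 0, and their sum of 1273 and 521 CPM stood against 14.35 and 20.2 CPM in other cells. The part of transcripts of other cells in the differences was not tested. As a percentage of the level in C1q-high barcodes, macrophage markers had a median of 1.38% in the isotype and 4.77% in the anti-CD40 library, taken over the 102 barcodes and genes with at least 20 CPM in C1q-high barcodes. For the interferon-gamma list the same medians were 145% over the 14 genes that reached this level in the isotype library and 261% over the 32 that did in the anti-CD40 library, so they are not over the same genes. Summed over the whole list, the level was 274% and 262% of that in C1q-high barcodes, against 2.07% and 5.29% for macrophage markers. In the anti-CD40 library 24 of 32 genes were higher in endothelial than in C1q-high barcodes.

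**Figure D5:**
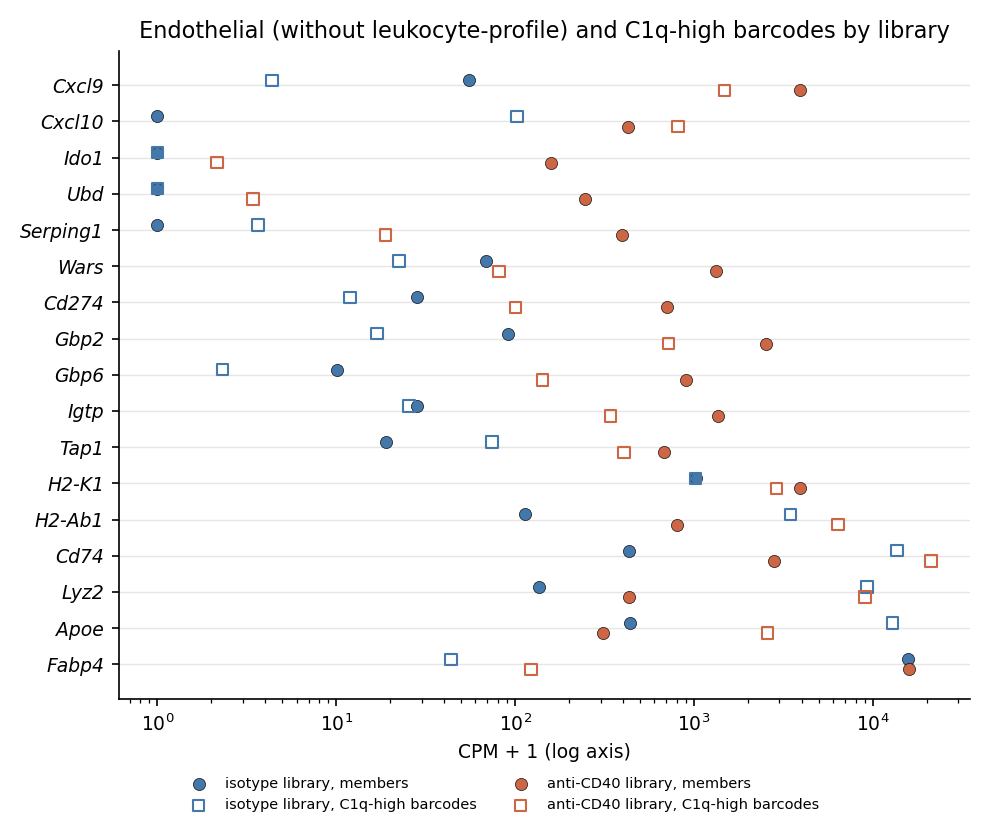
CPM plus 1 (log axis) of selected genes in the 102 endothelial barcodes (filled circles) and in C1q-high barcodes (open squares) of the isotype and anti-CD40 libraries. Ido1, Ubd and Wars lie far to the right of the squares in the anti-CD40 library, whereas the class II genes, Lyz2 and Apoe lie to the left.

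Ido1, Ubd and Serping1 were low in C1q-high barcodes, whereas Wars, Cxcl9 and Cd274 were also found in other cells. In C1q-high barcodes of the anti-CD40 library Ido1 reached 1.16 CPM, Ubd 2.42 CPM and Serping1 17.9 CPM, against 129, 198 and 322 CPM in the endothelial barcodes. Wars stood at 80.2 CPM there against 1098, but it had a UMI in 1379 of the 2545 C1q-high barcodes, near the 1368 with Cd274. Thinned to 1000 UMIs per barcode and averaged over all draws, Cd274 would be seen in 4.08% of isotype and 42.2% of anti-CD40 endothelial barcodes (37 and 66 barcodes deep enough, 3 and 2 left out), and in 0.853% and 8.61% of C1q-high barcodes. For Cxcl9 the same shares were 4.13% and 64.0%, and 0.222% and 46.7% in C1q-high barcodes. In neutrophil barcodes (10 or more UMIs of Csf3r and Retnlg, under 20 C1q UMIs and no UMI of the 4 rule genes; 114 and 240 deep enough) Cd274 stood at 4.48% and 47.0%, close to its shares in the endothelial barcodes, and Cxcl9 at 12.7% in the anti-CD40 library. Without thinning, Cd274 was seen in 6 of 40 and 52 of 68 endothelial barcodes and Cxcl9 in 6 and 58.

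Transcripts of MHC class I presentation were higher as a set. Summed, they stood at 6184 and 21724 CPM, and they also differed in C1q-high barcodes, at 6306 and 16801 CPM. Of 21 genes 20 were compared, 18 were more than 2-fold higher and 0 lower, with a median log2 ratio of 1.98. The heavy chain H2-K1 rested on 264 UMIs in 31 isotype barcodes and 1648 UMIs in all 68 anti-CD40 barcodes, 1078 against 3591 CPM (3.33-fold, 2.92 to 3.81). The light chain B2m stood at 1155 and 3360 CPM (2.91-fold, 2.56 to 3.31). Tap1, a subunit of the peptide transporter, stood at 28.6 and 625 CPM (21.9-fold, 10.5 to 54.9), and at 18.1 and 682 CPM over the 102 barcodes, and the immunoproteasome subunit Psmb8 stood at 208 and 1412 CPM (6.78-fold, 5.10 to 9.21). H2-M3 and Erap1 were the compared genes under 2-fold, at log2 ratios of 0.78 and 0.80. In 60 of 63 barcodes the class I sum exceeded the highest of 39 isotype barcodes, the medians being 225 and 50.7 per 10000.

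MHC class II genes depended on which barcodes were counted. Over all 108, 7 of 8 compared genes were past 2-fold higher with a median log2 ratio of 1.17, and over the 102 all 8 were, with a median of 2.70. With at most 4 C1q UMIs allowed only 2 genes were past 2-fold (median 0.55), and with 500 genes and mitochondrial UMIs under 5% only 1 was (median 0.20), both with the leukocyte-rich barcodes not set aside. Cd74, the class II chaperone, stood at 2775 and 6399 CPM over all barcodes, but 86% of its isotype UMIs lay in 1 barcode and 64.3% of its anti-CD40 UMIs in the 5 barcodes with more leukocyte transcripts. Over the 102 barcodes it stood at 429 and 2807 CPM. These levels were low beside C1q-high barcodes: the median over class II genes was 3.46% of the C1q-high level in the isotype (11 genes) and 12.5% in the anti-CD40 library (9 genes), against 1.38% and 4.77% for macrophage markers. Ciita, the class II transactivator, was relatively higher, at 9.04 and 174 CPM over the 102 barcodes against 146 and 271 CPM in C1q-high ones. The part of carried-over RNA in the class II levels was not tested.

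Type I interferon-stimulated genes, which overlap the targets of interferon-gamma, were higher in 20 of 24 compared genes and lower in 0, with a median log2 ratio of 1.78. The list also differed in C1q-high barcodes, where it summed to 1986 and 6265 CPM. The BST2 (CD317) tag, a product of an interferon-induced gene, stood at 330 and 793 per 10000 (2.40-fold, 2.36 to 2.44). Ly6a, the gene of Sca-1, stood at 1812 and 7575 CPM (4.18-fold, 3.79 to 4.62), while the Sca-1 tag stood at 365 and 456 per 10000 (1.25-fold, 1.23 to 1.27, and 1.96-fold by the control tags). In other cells that tag stood at 26.0 and 316 per 10000. The ratio of the transcript lay above that of the tag by more than counting error.

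Molecules that hold leukocytes to the vessel wall split. Of 9 compared adhesion genes 2, Vcam1 and Icam1, were past 2-fold higher and 0 lower, with a median log2 ratio of 0.64. Vcam1, the ligand of the integrin VLA-4, had 27 UMIs in 2 isotype barcodes and 226 in 32 anti-CD40 barcodes, 110 against 492 CPM (4.47-fold, 2.99 to 6.93). One isotype barcode held 77.8% of those UMIs, and without it the isotype level was 25.8 CPM. Icam1, the ligand of LFA-1, stood at 81.6 and 233 CPM (2.86-fold, 1.76 to 4.86), with 70% of the isotype UMIs again in 1 barcode. The ICAM-1 (CD54) tag had medians of 80 and 311 UMIs (232 and 402 per 10000), against 80.7 and 542 per 10000 in other cells, and 53.4% of the isotype tag UMIs came from 1 barcode. The VCAM-1 (CD106) tag had medians of 1 and 5 tag UMIs, with 80.1% of the isotype UMIs in 1 barcode. P-selectin (Selp), which starts leukocyte rolling, had 5 and 1 UMIs, each in 1 barcode. The constitutive ligand Icam2 stood at 343 and 538 CPM and Pecam1 at 873 and 782 CPM, both under 2-fold.

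Genes of CD40 signalling itself gave little. Cd40 had 2 UMIs in 1 isotype barcode and 23 UMIs in 12 anti-CD40 barcodes, and over the 102 barcodes 0 and 10 UMIs, too few to compare. The CD40 tag stood at 13.0 and 13.2 per 10000, against 30.4 and 67.4 in C1q-high barcodes and at most 2.39 and 1.90 for any control antibody. The control tags summed to 11.5 per 10000 in the isotype and 7.35 in the anti-CD40 endothelial barcodes. Scaled to them, the CD40 tag would be higher in the anti-CD40 library, so its equal shares depend on the scaling. Whether the injected antibody covers the site the tag binds was not tested. Of 22 genes of CD40 and NF-kB signalling 7 were compared and 3 (Traf1, Relb and Tnfaip2) were past 2-fold higher. Traf1 took 92.9% of its anti-CD40 UMIs from the 5 leukocyte-rich barcodes, and over the 102 barcodes 0 of 3 compared genes were past 2-fold.

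Fewer genes were lower than higher. Of 8 compared genes of VEGF, angiopoietin and apelin signalling 3 were past 2-fold lower and 0 higher, with a median log2 ratio of -0.88. Aplnr, the apelin receptor, had 41 UMIs in 15 isotype barcodes and 8 in 7 anti-CD40 barcodes, 167 against 17.4 CPM (9.60-fold lower, 4.44 to 23.7). Plxnd1, a semaphorin receptor, stood at 380 and 135 CPM (2.81-fold lower, 2.02 to 3.94), and Nrp2, a co-receptor of VEGF and semaphorins, at 290 and 131 CPM (2.22-fold lower, 1.55 to 3.18). The VEGF receptor Flt1 stood at 1465 and 961 CPM and the angiopoietin receptor Tek at 282 and 146 CPM, both short of 2-fold on this scale.

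The other genes ranked lowest had modest counts. Cyp26b1, which breaks down retinoic acid, had 44 UMIs in 11 isotype and 8 in 7 anti-CD40 barcodes (10.3-fold lower, 4.80 to 25.3). Pcdh17, a protocadherin, stood at 224 and 52.3 CPM (4.29-fold lower, 2.61 to 7.25). Aqp1, the water channel of capillaries, had 184 UMIs in 21 and 92 UMIs in 24 barcodes, 751 against 200 CPM (3.75-fold lower, 2.90 to 4.87), and the glycerol channel Aqp7 stood at 339 and 93.7 CPM (3.62-fold lower, 2.47 to 5.35). Vwf, the clotting glycoprotein of larger vessels, stood at 204 and 45.8 CPM, yet 72% of the isotype UMIs lay in 1 barcode and 47.6% of the anti-CD40 UMIs in another, and without these it stood at 60.1 and 24.2 CPM. Trf, ranked low over all barcodes, took 86.7% of its isotype UMIs from 1 barcode and had a log2 ratio of -0.11 over the 102.

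Chemokines differed in both directions, with 5 of 9 compared genes past 2-fold higher and 2 lower. The lower ones were Cxcl12, which retains CXCR4-bearing cells and marks arterial and capillary endothelium, and its scavenger receptor Ackr3. Cxcl12 had 706 UMIs in 30 of 40 isotype and 415 UMIs in 49 of 68 anti-CD40 barcodes, 2882 against 904 CPM (3.19-fold lower, 2.82 to 3.61). Ackr3 stood at 147 and 41.4 CPM (3.55-fold lower, 1.98 to 6.55).

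Of 10 compared basement membrane genes 3 were past 2-fold lower and 0 higher, with a median log2 ratio of -0.85, and over the 102 barcodes 2 were. The count was 1 with at most 4 C1q UMIs and 5 with a median of ratios. Sparcl1, a matricellular protein, stood at 1543 and 623 CPM (2.48-fold lower, 2.12 to 2.90), its relative Sparc at 2767 and 1353 CPM (2.05-fold lower, 1.83 to 2.28), and the laminin chain Lamc1 at 184 and 54.5 CPM (3.37-fold lower, 2.02 to 5.74). The collagen IV chains Col4a1 (1294 and 1002 CPM) and Col4a2 (780 and 523 CPM) were under 2-fold.

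Most identity and metabolic genes lay within 2-fold. Of 33 compared endothelial identity genes 0 were past 2-fold higher and 3 (Ets1, Fli1 and Sox7, all transcription factors) lower, and the median was -0.23. Over the 102 barcodes 1 (Sox17) was higher and 1 (Sox7) lower, with a median of -0.09, and with a median of ratios 5 were lower. Of 16 capillary genes 2 were lower, both of them aquaporins, and 0 higher. Cd36, the fatty acid translocase, stood at 2722 and 2172 CPM, and Gpihbp1, which anchors lipoprotein lipase to capillaries, at 1351 and 1220 CPM. In the fatty acid list 2 of 8, Plin2 and Acsl5, were past 2-fold higher, the lipid droplet protein Plin2 at 53.1 and 157 CPM (2.96-fold, 1.62 to 5.82). The glycolytic activator Pfkfb3 stood at 12.2 and 327 CPM, against 43.5 and 35.6 CPM in C1q-high barcodes, and was the 1 of 11 compared glycolysis genes past 2-fold. Junction genes were past 2-fold in 0 of 7, with a median of -0.66. The shear-responsive factor Klf2 stood at 1518 and 1601 CPM. No cell cycle gene of 18 had enough UMIs to compare.

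Single barcodes decided a few further values. Among arterial genes, Jag1, a Notch ligand, stood at 16.3 and 93.7 CPM, with 53.5% of the anti-CD40 UMIs in 1 barcode. The vasoconstrictor Edn1 had 7 UMIs in 3 isotype and 61 UMIs in 7 anti-CD40 barcodes. The CCR2 tag stood at 340 and 9.55 per 10000 and the TLR4 tag at 166 and 8.96, but 95.8% and 90.2% of the isotype UMIs lay in 1 barcode each, and the medians were 7 and 10 for CCR2 and 9 and 8.5 for TLR4. The EPCR (CD201) tag stood at 58.8 and 4.12 per 10000 with 71.1% of the isotype UMIs in 1 barcode, which also held the most Vwf UMIs and CD54 tag UMIs of the isotype barcodes. Bcl2a1b, ranked high over all barcodes, took 96.4% of its anti-CD40 UMIs from the leukocyte-rich barcodes and had a log2 ratio of 0.51 without them.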

How the data were processed

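The authors deposited, per the file headers, a Cell Ranger 6.0.1 matrix of raw UMI counts for each library, covering 32285 genes and 198 tags, of which 9 are controls. The submitters' processing notes list Cell Ranger 3, Seurat 3 and the builds mm10 and GRCh38, without roles. The chemistry is a 10X Chromium 5′ kit, per the labels' protocols. No doublet caller was run here, and the limits on other cells stood in its place. UMI counts were summed over endothelial barcodes per library in Python 3.11.15 (numpy 2.4.6, pandas 2.3.3, scipy 1.17.1) and scaled to CPM with a prior of 10 CPM. TMM factors came from edgeR 4.0.16 as an alternative scaling. Intervals were Clopper-Pearson or exact conditional binomial ones. The comparison was tested on simulated summed counts drawn without variation between barcodes, so that check does not cover values carried by single barcodes. Genes named by rank were the 15 highest and 10 lowest ratios among genes at least as high in endothelial as in other cells, and the 5 highest and lowest without that condition. Both passed over mitochondrial, ribosomal, antigen receptor and other-cell genes and unnamed gene models. Other genes were named by their level or ratio within 38 lists. Tags were chosen by antigen. The members and lists were chosen with earlier results of these data known. The promoters are from RefSeq. Other alternatives are given in the closing section.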

Additional observations from a re-analysis of the deposited data

Results flagged for a closer look

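Some barcodes outside the comparison carried endothelial transcripts. Among barcodes dropped for 10% or more mitochondrial UMIs, 8 isotype barcodes (of 2245 dropped) and 9 anti-CD40 barcodes (of 2767 dropped) met the UMI sums of the rule. They are singled out because no comparison used them. They had medians of 2583 and 3652 gene UMIs and of 688.5 and 1359 CD31 tag UMIs. Their interferon-gamma list stood at 30.7 UMIs per 10000 in the isotype and 294 in the anti-CD40 library, and their MHC class I list at 69.6 and 171.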

How the results depend on the processing

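Each library is 1 pooled preparation, so none could be left out. No paired analysis was possible because each treatment has 1 library and no result comes from a test. Of 62 counts, shares and list results that answer a comparison, 54 stayed within 1.5 times or within the interval and 8 did not. The anti-CD40 share was 1.15% with at most 4 C1q UMIs, 2.78% without limits on other cells and 0.804% (32 of 3982) with the rule on barcodes thinned to 1000 UMIs. Lower genes numbered 44 with 500 genes and under 5% mitochondrial UMIs, 1 of them in the interferon-gamma list. With members thinned to 1000 UMIs, 550 genes were past 2-fold higher and 262 lower, and with no filter on low counts 666 and 732; both settings rest on genes with few UMIs. Among 33 ranked or listed genes past 2-fold, 32 or 33 kept their sign in each of 10 settings, and 29 were still past 2-fold after thinning. They were picked by their ratios in mostly the same barcodes, so a kept sign says little. The log2 ratio of Trf was 0.16 with a minimum of 6 endothelial UMIs, that of Vwf 1.65 with 500 genes and under 5% mitochondrial UMIs, and that of Aplnr 0.58 after thinning. The cause was not tested. Scaling tags to the control antibodies gave 2.72-fold for CD54 and 1.96-fold for Sca-1. The set without the 6 leukocyte-rich barcodes was chosen after seeing the data. With 40 and 68 barcodes, a gene at 0 is bounded only by 3 UMIs.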
